A study of Mus musculus with 6 samples.

Results

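The wall of a peripheral nerve is built by several kinds of connective tissue cell, and 10 genes that mark them were followed here in mouse DRG and neurofibroma tissue: *Pdgfra*, *Pi16*, *Dpt*, *Dpp4*, *Clec3b*, *Sox9*, *Osr2*, *Slc2a1*, *Cldn1* and *Moxd1*. They were taken by symbol from a list of nerve fibroblast and perineurial genes, and all 10 were found among the 24062 genes of the count data. Bulk RNA-seq had been performed on dorsal root ganglia (DRG) and tumors of 6 mice, 3 per genotype. The first group was Nf1fl/fl;DhhCre. The second carried floxed Runx1 and Runx3 as well (Runx1fl/fl;Runx3fl/fl;Nf1fl/fl;DhhCre in the study's methods, while the sample labels give Rx1flfl;Rx3fl/fl;DhhCre and leave out Nf1) and is called double knockout. All mice were of the strain written C57BL/6-I129 in the labels, none was described as treated, and their age is not given for these libraries. The labels name DRG as the tissue of the Nf1fl/fl;DhhCre group and neurofibroma tumor as that of the double knockout, where the study's methods write DRG/tumors for both. If the tissues differed as labelled, tissue and genotype cannot be told apart in any comparison here. Sensory neuron markers, which DRG neurons define, were present in both groups and higher in the group labelled tumor (summed CPM of 1248 to 2558 against 6285 to 14193). DhhCre drives recombination in Schwann cells (SCs) and their precursors, and cells that do not descend from them keep intact copies of the floxed genes. Which of the connective tissue cells had recombined was not measured. The question put to the data was how the connective tissue genes differed between tissue with and without floxed Runx1 and Runx3.

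Nerve fascicles hold loose endoneurium around the axons, a perineurium of flat cells joined by tight junctions that forms the blood-nerve barrier, and an outer epineurium continuous with the adventitia of vessels. Neurofibromas are mixtures of Nf1-deficient SCs with fibroblasts, perineurial-like cells, macrophages, mast cells, vessels and collagen. *Pdgfra* encodes the platelet-derived growth factor receptor alpha and marks fibroblasts broadly. *Sox9* and *Osr2* encode transcription factors used as endoneurial fibroblast markers. *Slc2a1* (the glucose transporter GLUT1), *Cldn1* (the tight junction protein claudin-1) and *Moxd1* (a monooxygenase-like protein) were placed with the perineurium. *Pi16* (peptidase inhibitor 16), *Dpt* (the matrix protein dermatopontin), *Dpp4* (a cell surface peptidase) and *Clec3b* (tetranectin) are better known from epineurial and adventitial fibroblasts than from endoneurial or perineurial cells, and they are described under that name. None of these genes is found in a single cell type. In bulk tissue, fewer cells of a type and less RNA per cell cannot be told apart.

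The libraries held 12439296 to 16682194 counts. Values are normalised read counts (CPM, scaled to equal library totals with TMM factors). A differentially expressed gene (DEG) had an adjusted p below 0.05 and a change of more than 2-fold in limma-voom, with p-values adjusted by the Benjamini-Hochberg method over the 15652 genes tested. *Runx1*, one of the floxed genes, was at 131, 141 and 172 CPM in Nf1fl/fl;DhhCre replicates 1 to 3 and at 84.0, 78.9 and 185 CPM in double knockout replicates 1 to 3. Replicate 3 of the double knockout thus had the highest *Runx1* level of all 6 libraries. Since cells outside the SC lineage keep intact *Runx1*, a level in bulk tissue cannot show whether a label is right. That replicate also had the highest summed CPM of sensory neuron markers (14193, against 6285 and 7267 in replicates 1 and 2). The part of neurons in the *Runx1* level was not tested. The group is called the libraries labelled double knockout. *Runx3* was at 15.1 to 29.9 CPM and at 10.3 to 13.5 CPM in the respective groups, and *Nf1* at 302 ± 30.8 and 290 ± 44.5 CPM (SD, n = 3 each). One library labelled double knockout came from another sequencing run than the other 5. Title and file name give swapped mouse numbers for double knockout replicates 2 and 3, so that the library of the other run could be either, and the number of DEGs among the 10 genes is given without each. The same swap was found for Nf1fl/fl;DhhCre replicates 1 and 2. Replicate numbers here follow the order of the samples within each group, and values are those deposited with each sample.

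Of the 10 genes, 4 passed the test with lower levels in the libraries labelled double knockout: the fibroblast receptor gene *Pdgfra*, the endoneurial *Sox9*, the perineurial *Cldn1* and the epineurial *Dpp4*. No gene was a DEG in the other direction with limma-voom, with edgeR's quasi-likelihood test or with DESeq2 (0 each), and 0 were higher at an unadjusted p below 0.05. Every gene passed the filter on low counts. Over all genes tested, 13.4% were DEGs, 5.36% lower and 8.03% higher in the libraries labelled double knockout. The 4 of 10 lower lies above the share of all genes that were lower. With only 10 genes, 0 higher is near the share that were higher. The same 4 genes had no overlap between the groups in CPM, and 20.5% of all genes tested were lower with no overlap. The median log2 fold change was -0.55 over the 10 genes and 0.02 over all genes tested. Without double knockout replicate 1 the median of the 10 was -1.11, and without replicate 3 it was -0.21. Leaving out 1 library at a time left 1 to 3 of the 4 as DEGs, and only *Sox9* passed in each of the 6 fits. It was alone without Nf1fl/fl;DhhCre replicate 1, while *Sox9* and *Cldn1* were left without double knockout replicate 2 or 3.

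Promoters of *Cldn1*, *Dpp4* and *Pdgfra*, which were DEGs, and of *Slc2a1*, which was not, are shown because RUNX proteins bind DNA at the core TGTGGT, or in its short form TGTGG. The stretches run from 200 to 41 bases before the RefSeq start in GRCm38.p6, 5′ to 3′ on the strand of the gene, and lie at chr16:26371880-26372039 (minus strand), chr2:62412272-62412431 (minus strand), chr5:75152051-75152210 (plus strand) and chr4:119108545-119108704 (plus strand), in that order. Capitals mark TGTGGT or TGTGG, or CCACA where the motif is on the other strand.
Cldn1: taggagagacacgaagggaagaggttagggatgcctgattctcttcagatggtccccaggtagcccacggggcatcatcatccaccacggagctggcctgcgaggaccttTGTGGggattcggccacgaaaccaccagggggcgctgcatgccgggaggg
Dpp4: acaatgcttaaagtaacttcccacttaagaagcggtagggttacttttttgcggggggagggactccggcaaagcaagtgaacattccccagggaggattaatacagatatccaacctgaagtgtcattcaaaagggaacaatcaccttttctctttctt
Pdgfra: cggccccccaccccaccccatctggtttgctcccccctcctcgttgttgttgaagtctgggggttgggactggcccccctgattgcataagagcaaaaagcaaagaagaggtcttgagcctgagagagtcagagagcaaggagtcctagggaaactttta
Slc2a1: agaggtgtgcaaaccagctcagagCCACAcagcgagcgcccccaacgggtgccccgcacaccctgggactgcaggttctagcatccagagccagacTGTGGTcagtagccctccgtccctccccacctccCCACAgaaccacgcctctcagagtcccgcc
The full windows searched, on both strands, ran from 250 bases before to 50 bases after the start, and 7 of the 10 genes had one. The DEG *Sox9* had none, nor had *Osr2* and *Clec3b*, and these genes were not searched. TGTGGT was found in 2 of the 7, once in *Slc2a1*, 104 bases before the start on the plus strand, and once in *Dpt*, 9 bases before the start on the other strand. Among 32851 promoter windows of the same 300 bases, 16.8% held TGTGGT. The short form TGTGG, which every TGTGGT contains, was found in 4 of the 7 (*Pi16*, *Dpt*, *Slc2a1* and *Cldn1*) and in 55.9% of all windows. In *Cldn1* it lay 90 bases before the start. Neither form was in the windows of *Pdgfra*, *Dpp4* and *Moxd1*. A match here is a stretch of letters and not a measured binding site. The study placed a small part of its RUNX1-bound regions near a gene start. A window without a match therefore says nothing of sites elsewhere.

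*Cldn1* was the most abundant of the 10 genes per kb of exon and had the largest difference in CPM. The gene lies on chromosome 16 of GRCm38 from 26356642 to 26371841 on the minus strand. It was at 680, 1015 and 463 CPM in the Nf1fl/fl;DhhCre mice and at 233, 117 and 185 CPM in those labelled double knockout. The lowest level of the first group was thus well above the highest of the second. The means were 719 ± 278 and 179 ± 58.2 CPM (SD, n = 3 each), and the log2 fold change was -1.99 (SE 0.34, 95% interval -2.79 to -1.19, adjusted p = 0.0133 from limma-voom). Without double knockout replicate 3, the library with the highest *Runx1* level, it was -2.04 (adjusted p = 0.0309 from limma-voom). When each library was left out in turn, *Cldn1* passed in 5 of 6 fits. The exception was the fit without Nf1fl/fl;DhhCre replicate 1, where the log2 fold change was -1.97 (adjusted p = 0.0566 from limma-voom).

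The other perineurial genes of the 10, *Slc2a1* and *Moxd1*, did not pass the test. *Slc2a1*, the glucose transporter of the perineurial barrier and of endothelial cells, was at 146, 124 and 103 CPM in the Nf1fl/fl;DhhCre mice and at 132, 85.9 and 124 CPM in those labelled double knockout. The groups overlapped, and the log2 fold change of -0.13 had a 95% interval of -0.61 to 0.35 (SE 0.21, adjusted p = 0.685 from limma-voom), which leaves out a change of 2-fold in either direction. *Moxd1* was at 23.4, 47.7 and 18.9 CPM and at 27.5, 26.3 and 57.8 CPM in the respective libraries. Its highest value was in double knockout replicate 3, and its log2 fold change was 0.34 (SE 0.43, 95% interval -0.66 to 1.34, adjusted p = 0.613 from limma-voom). Without that replicate it was -0.05. The 95% intervals of *Cldn1* and *Slc2a1* do not overlap, but the difference between those genes was not tested. The annotated exons of *Slc2a1* overlap *Gm12868* on the opposite strand, and since the strandedness of counting is not given in the sources used here, reads of such partners cannot be told apart.

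**Figure D1:**
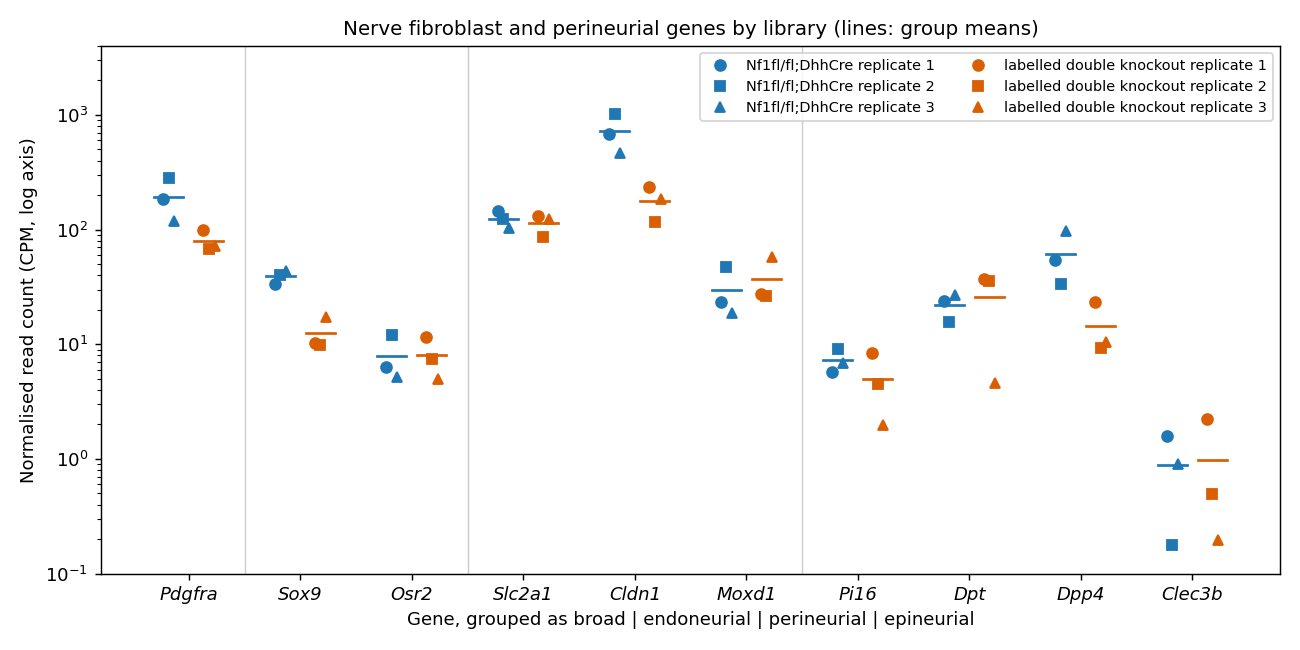
CPM of each gene (y axis, log scale) in each library (points, shape by replicate, color by genotype label), with horizontal lines at the group means of 3 libraries. *Cldn1*, *Dpp4*, *Sox9* and *Pdgfra* show no overlap between the groups, and *Dpt* reaches from 4.62 to 37.5 CPM within the libraries labelled double knockout.

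*Sox9* had the smallest spread of the 4 DEGs within the Nf1fl/fl;DhhCre libraries. It encodes a transcription factor of neural crest derivatives, endoneurial fibroblasts and cartilage and lies on chromosome 11 of GRCm38 from 112782224 to 112787760. It was at 33.6, 39.9 and 43.6 CPM in the Nf1fl/fl;DhhCre mice and at 10.4, 9.95 and 17.2 CPM in those labelled double knockout. Every library of the first group was above every library of the second, with means of 39.1 ± 5.04 and 12.5 ± 4.09 CPM (SD, n = 3 each). The log2 fold change was -1.66 (SE 0.24, 95% interval -2.23 to -1.08, adjusted p = 0.0106 from limma-voom). It ranged from -1.93 to -1.49 over the 6 fits on 5 libraries, with adjusted p-values from 0.0135 to 0.0414 in limma-voom. The first of these values was the one without double knockout replicate 3.

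*Sox9* also marks chondrocytes, and of their marker list 8 of 9 genes were in the files. The summed CPM of that list was 91.8 to 144 in the Nf1fl/fl;DhhCre libraries and 65.4 to 72.2 in those labelled double knockout. The gene with the highest mean CPM in this sum was *Col2a1*. Of the 5 genes tested, 3 had a positive and 2 a negative log2 fold change, with a median of 0.15. *Col2a1*, the collagen of cartilage, was at 73.6, 43.3 and 86.2 CPM against 20.1, 12.7 and 11.2 CPM and was a DEG (log2 fold change -2.20), *Hapln1* was a higher DEG (2.89), while *Matn3* was at 0 in every library. The part of these cells in the *Sox9* result was not tested. *Osr2*, the other endoneurial marker, was at 6.38, 12.0 and 5.20 CPM in the Nf1fl/fl;DhhCre mice and at 11.6, 7.40 and 5.02 CPM in those labelled double knockout. The groups overlapped nearly completely, with a log2 fold change of -0.01 (SE 0.43, 95% interval -1.01 to 0.99, adjusted p = 0.989 from limma-voom).

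*Pdgfra*, the receptor gene shared by most fibroblasts, was 2.34-fold lower in the libraries labelled double knockout. The gene lies on chromosome 5 of GRCm38 from 75152292 to 75198215. It was at 184, 279 and 120 CPM in the Nf1fl/fl;DhhCre mice and at 98.7, 68.1 and 72.2 CPM in those labelled double knockout. The groups did not overlap, but the lowest library of the first lay close above the highest of the second. The means were 194 ± 80.3 and 79.7 ± 16.6 CPM (SD, n = 3 each), and the log2 fold change was -1.23 (SE 0.32, 95% interval -1.97 to -0.48, adjusted p = 0.0372 from limma-voom). When each library was left out in turn, *Pdgfra* passed in 1 of 6 fits, the one without Nf1fl/fl;DhhCre replicate 3 (-1.49). Over these fits the log2 fold change ranged from -1.49 to -0.87 and the adjusted p in limma-voom from 0.0348 to 0.116. The annotated exons of *Pdgfra* overlap *Gm42802* on the opposite strand and the microRNA gene *Mir7025* on the same strand.

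Of the 4 epineurial genes *Dpp4* was a lower DEG and 3 did not pass the test. Their 95% intervals overlap that of *Dpp4*, and the differences between these genes were not tested. *Dpp4* lies on chromosome 2 of GRCm38 from 62330073 to 62412231 on the minus strand and was at 54.4, 33.4 and 97.4 CPM in the Nf1fl/fl;DhhCre mice and at 23.2, 9.21 and 10.5 CPM in those labelled double knockout. The groups did not overlap, although both varied widely, with means of 61.7 ± 32.6 and 14.3 ± 7.73 CPM (SD, n = 3 each). The log2 fold change was -2.10 (SE 0.51, 95% interval -3.30 to -0.90, adjusted p = 0.0314 from limma-voom). When each library was left out in turn, *Dpp4* passed in 2 of 6 fits, those without Nf1fl/fl;DhhCre replicate 2 (-2.44) and without double knockout replicate 1 (-2.46). The smallest change was without Nf1fl/fl;DhhCre replicate 3 (-1.66, adjusted p = 0.0601 from limma-voom), and the fit without double knockout replicate 3 gave -1.92 (adjusted p = 0.0957 from limma-voom).

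*Dpp4* is also found on immune and endothelial cells, and the macrophage markers moved with it. Of that list 12 of 13 genes were in the files, 9 of them DEGs and all 9 lower. Their summed CPM was 1174, 924 and 1546 in the Nf1fl/fl;DhhCre libraries and 532, 253 and 413 in those labelled double knockout, which puts the 6 libraries in the order of their *Dpp4* levels. The summed CPM of the 15 epineurial and adventitial genes gave the same order, at 1792, 1727 and 1936 against 1202, 876 and 1194. T cell markers summed to 12.4 to 48.1 and 4.62 to 7.73 CPM in the respective groups, with 0 DEGs among the 6 genes tested. Endothelial markers summed to 212 to 292 and 230 to 391 CPM, and 0 of 10 were DEGs. The part of immune cells in the *Dpp4* result was not tested.

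*Pi16*, *Dpt* and *Clec3b* shared a pattern within the libraries labelled double knockout, with replicate 1 highest and replicate 3 lowest. *Dpt* was at 23.7, 15.5 and 27.0 CPM in the Nf1fl/fl;DhhCre mice and at 37.5, 35.8 and 4.62 CPM in those labelled double knockout. The first 2 of these are the highest *Dpt* levels of all libraries and the last is the lowest. The log2 fold change was -0.30 (SE 0.76, 95% interval -2.07 to 1.47, adjusted p = 0.817 from limma-voom), and the fit without double knockout replicate 3 gave 0.78 (adjusted p = 0.0971 from limma-voom). *Pi16* was at 5.69, 9.06 and 6.93 CPM and at 8.37, 4.52 and 1.98 CPM in the respective libraries. Its groups overlapped, and the log2 fold change was -0.81 (SE 0.49, 95% interval -1.96 to 0.34, adjusted p = 0.282 from limma-voom). Without double knockout replicate 3 it was -0.21.

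*Clec3b* had the lowest counts of the 10 genes, with 23, 3 and 14 counts in the Nf1fl/fl;DhhCre libraries and 28, 6 and 3 counts in those labelled double knockout. The 95% interval of its log2 fold change ran from -2.68 to 2.54, which includes changes of more than 2-fold in either direction. The annotated exons of *Pi16* overlap those of AC162182.1 on the opposite strand. *Osr2* was likewise highest in double knockout replicate 1 and lowest in replicate 3, while *Slc2a1*, *Cldn1*, *Pdgfra* and *Dpp4* were lowest in replicate 2, as were *Sox9* and *Moxd1*. The low *Dpt*, *Pi16* and *Clec3b* levels of replicate 3 thus did not extend to all 10 genes.

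**Figure D2:**
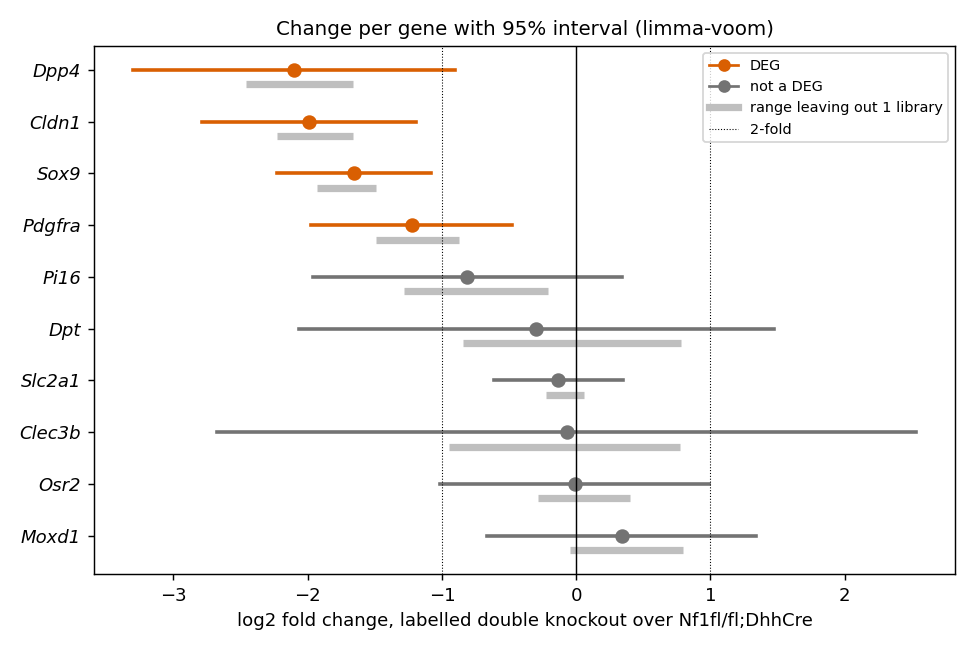
Log2 fold change of each gene, labelled double knockout over Nf1fl/fl;DhhCre (x axis), with the 95% interval of limma-voom from 3 libraries a group; orange marks DEGs, and gray bars span the values when 1 library is left out. The intervals of the 4 DEGs lie below 0, while those of *Dpt* and *Clec3b* extend past 2-fold in both directions.

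Skeletal muscle RNA was unevenly spread. The summed CPM of 8 muscle markers was 46.3, 2209 and 5.52 in the Nf1fl/fl;DhhCre libraries and 51.4, 11420 and 64.6 in those labelled double knockout, and 0 of the 8 were DEGs. The genes *Pdgfra*, *Cldn1*, *Osr2* and *Moxd1* were highest within Nf1fl/fl;DhhCre in replicate 2, then in replicate 1 and then in replicate 3, as were the muscle markers, whereas *Dpt* and *Dpp4* had the reverse order. In the libraries labelled double knockout, 6 of the 10 genes (*Pdgfra*, *Cldn1*, *Dpp4*, *Sox9*, *Slc2a1* and *Moxd1*) were lowest in the library with the most muscle RNA. So were the sums of the broad, endoneurial, perineurial, epineurial, SC, macrophage, mast cell and chondrocyte marker lists. The sums of the other marker lists were not, and the share over all genes was not computed. In Nf1fl/fl;DhhCre, *Pdgfra*, *Cldn1* and *Moxd1* were instead highest in the library with the most muscle RNA. Without double knockout replicate 2, *Cldn1* (-1.72) and *Sox9* (-1.51) were the 2 remaining DEGs of the 10. *Pdgfra* was then at -1.13 (adjusted p = 0.114 from limma-voom) and *Dpp4* at -1.87 (adjusted p = 0.0989 from limma-voom). The part of muscle in these results was not tested.

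*Cldn1* and *Pdgfra* ordered all 6 libraries alike, from Nf1fl/fl;DhhCre replicates 2, 1 and 3 to double knockout replicates 1, 3 and 2. They were the only 2 of the 10 genes to share the order of all libraries. Within groups the highest library exceeded the lowest by 2.19-fold and 1.99-fold for *Cldn1* and by 2.33-fold and 1.45-fold for *Pdgfra*. The widest spreads within a group were those of *Clec3b* (11.3-fold in the libraries labelled double knockout and 8.93-fold in Nf1fl/fl;DhhCre), followed by *Dpt* in the libraries labelled double knockout (8.11-fold), and the narrowest that of *Sox9* in Nf1fl/fl;DhhCre (1.30-fold).

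Levels of different genes were compared as CPM per kb of exon. In Nf1fl/fl;DhhCre the order was *Cldn1* (222 ± 85.6), *Slc2a1* (38.2 ± 6.62), *Pdgfra* (22.2 ± 9.16), *Dpt* (12.8 ± 3.44), *Dpp4* (11.7 ± 6.19), *Moxd1* (9.70 ± 5.01), *Sox9* (9.45 ± 1.22), *Osr2* (4.36 ± 2.02), *Pi16* (1.27 ± 0.300) and *Clec3b* (0.898 ± 0.714 CPM per kb; SD, n = 3). *Cldn1* stood clear of *Slc2a1*, *Sox9* of *Osr2*, and *Osr2* of *Pi16*, with no overlap of libraries. *Slc2a1* and *Pdgfra* overlapped slightly, as did *Pdgfra* and *Dpt*, the 4 genes from *Dpt* to *Sox9* lay within the range of each other, and *Clec3b* overlapped *Pi16*. In the libraries labelled double knockout, *Cldn1* was still first at 55.0 ± 17.9 CPM per kb, but its range of 36.1 to 71.8 now overlapped that of *Slc2a1* (26.4 to 40.5). *Dpt* (15.1 ± 10.7) and *Moxd1* (12.0 ± 5.78) came next, *Pdgfra* followed at 9.09 ± 1.89, and *Dpp4* stood below *Osr2* and *Sox9* at 2.71 ± 1.47 CPM per kb (SD, n = 3). Perineurial *Cldn1* and *Slc2a1* were therefore the most abundant of the 10 transcripts in both groups, and the epineurial *Pi16* and *Clec3b* the least.

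Of 15 broad fibroblast genes 14 were tested, and 5 were DEGs, all lower, beside 5.36% lower DEGs over all genes tested. The median log2 fold change of the list was -0.99, beside 0.02 over all genes tested. *Lum*, encoding the collagen-binding proteoglycan lumican, was at -1.66 (SE 0.28), *Pcolce*, a procollagen processing enhancer, at -1.44 (SE 0.24), and *Fap*, fibroblast activation protein, at -1.44 (SE 0.26). *Dcn* (decorin), the most abundant of the list per kb, was at -1.21 (SE 0.18). An adjusted p below 0.05 without the limit on fold was reached by 10 lower genes and 1 higher gene, *Thy1* (0.98, SE 0.18, adjusted p = 0.0150 from limma-voom), which is found on neurons as well as fibroblasts. With 1 library left out, the list had 1 higher DEG in 4 of the 6 fits. The count of lower DEGs ranged from 1, without Nf1fl/fl;DhhCre replicate 1, to 10, without double knockout replicate 1, and was 3 without double knockout replicate 2. Without Nf1fl/fl;DhhCre replicate 2 it was 8, and with scaling by library size only it was 9.

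Among 10 endoneurial fibroblast genes 3 were DEGs, all lower, with a median log2 fold change of -0.94. Of all genes tested 5.36% were lower DEGs. *Cxcl14*, a chemokine gene, was at 29.8, 27.9 and 29.6 CPM in the Nf1fl/fl;DhhCre mice and at 3.19, 4.36 and 4.49 CPM in those labelled double knockout (log2 fold change -2.85, SE 0.23). *Wif1*, which encodes an inhibitor of Wnt signaling, was at -2.52 (SE 0.66), and *Apod*, apolipoprotein D, at -2.09 (SE 0.28). *Apod* was also the most abundant of the list per kb. All 10 genes had a negative log2 fold change. Without double knockout replicate 1, 5 of the 10 were lower DEGs, and each of the other 5 fits that left out a library gave 2.

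The perineurial list had 1 higher and 1 lower DEG among 12 genes, shares near those of all genes tested (8.03% and 5.36%), and a median log2 fold change of -0.03. *Cdh1*, encoding E-cadherin, was higher, at 66.7, 57.3 and 65.9 CPM in the Nf1fl/fl;DhhCre libraries and 184, 199 and 257 CPM in those labelled double knockout (1.75, SE 0.16). It is also a gene of epithelia and of myelinating SCs, and of 7 epithelial markers it was the only DEG. Of the others *Krt5*, *Krt14* and *Krt8* were at 0 in every library, *Krt18* was at or below 0.277 CPM, *Epcam* was at or below 4.23 CPM and *Trp63* at or below 10.1 CPM. Hemoglobin genes were listed at 0 in every library as well, so that a 0 in these counts says little about a cell type. *Casq2*, calsequestrin of cardiac and slow muscle, was the lower DEG (-1.52, SE 0.36) and did not pass in 4 of the 6 fits on 5 libraries: those without Nf1fl/fl;DhhCre replicate 1 or 3 and without double knockout replicate 2 or 3. *Cav1* (caveolin-1), the most abundant per kb over all 6 libraries, was at 0.71 (SE 0.29, adjusted p = 0.129 from limma-voom). In Nf1fl/fl;DhhCre alone, *Tjp1* and *Cav1* were level (52.7 and 52.6 CPM per kb).

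Of 15 epineurial and adventitial genes 14 were tested, with 5 lower and 1 higher DEG and a median log2 fold change of -0.60. Over all genes tested 5.36% were lower and 8.03% higher DEGs, so that the 1 higher gene is near that share. *Cd55*, encoding an inhibitor of complement that sensory neurons also express, was higher (2.12, SE 0.34). *Fbn1*, the microfibril protein fibrillin-1, was at -1.56 (SE 0.24) and *Gfpt2*, of the hexosamine pathway, at -1.54 (SE 0.32). *Efemp1* (fibulin-3), the most abundant of the list per kb over all 6 libraries, was at -1.37 (SE 0.20). In the libraries labelled double knockout, *Cd55* was above *Efemp1* (134 and 76.3 CPM per kb). The median was -1.22 without Nf1fl/fl;DhhCre replicate 2 and -1.24 without double knockout replicate 1. Without Nf1fl/fl;DhhCre replicate 1, 2 genes of this list were lower DEGs and 0 were higher DEGs.

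**Figure D3:**
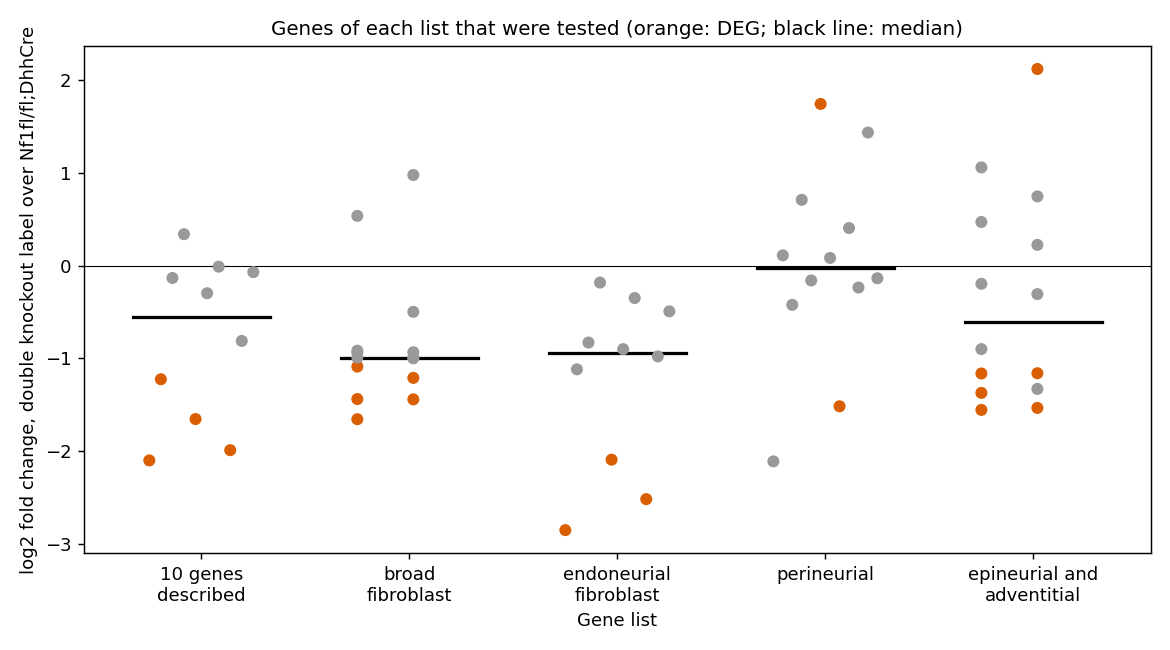
Log2 fold change, labelled double knockout over Nf1fl/fl;DhhCre (y axis), of each tested gene of the 10 described and of 4 further lists (x axis; horizontal jitter has no meaning), with DEGs in orange and the median as a black line. The broad and endoneurial fibroblast lists lie mostly below 0 (medians -0.99 and -0.94), and the perineurial list is centered near 0 (-0.03).

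Because 12 of the 14 broad fibroblast genes tested had a negative log2 fold change, each of the 10 genes was also set against the mean log2 CPM of the 15 broad fibroblast genes of the same library. That mean was 7.30, 7.39 and 7.30 in the Nf1fl/fl;DhhCre libraries and 6.91, 6.23 and 6.39 in those labelled double knockout, a difference of -0.82. It includes *Thy1*, which was higher. With 3 libraries a group an exact permutation test cannot give a p below 0.1, and these differences were not tested.

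Relative to that mean, *Dpp4* (-1.24), *Cldn1* (-1.17) and *Sox9* (-0.82) had lower values in the libraries labelled double knockout with no overlap between the groups. *Dpp4* was separated narrowly, at -1.52, -2.31 and -0.68 in the Nf1fl/fl;DhhCre libraries against -2.34, -2.95 and -2.93. So was *Sox9*, at -2.20, -2.05 and -1.83 against -3.47, -2.85 and -2.24. *Pdgfra* overlapped (-0.40). It stood at 0.23, 0.74 and -0.39 in the Nf1fl/fl;DhhCre mice and at -0.28, -0.13 and -0.21 in those labelled double knockout. *Slc2a1* was higher relative to the broad genes with no overlap, at -0.10, -0.43 and -0.60 against 0.14, 0.20 and 0.57 (0.68). *Moxd1* (1.14), *Osr2* (0.85), *Clec3b* (0.79), *Dpt* (0.62) and *Pi16* (0.15) had positive differences with overlapping groups at a prior count of 0.5. With a prior count of 2, *Clec3b* was higher with no overlap (0.77). Thus *Cldn1* and *Slc2a1*, both perineurial, had differences of opposite sign relative to the broad fibroblast genes. The mean itself differed by -0.82, so a gene with an unchanged level has a positive difference on this scale. The log2 fold change of *Slc2a1* itself was -0.13. The share of all genes separated upward on this scale was not computed. As levels, *Cldn1* and *Slc2a1* both lay above that mean in every library labelled double knockout.

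**Figure D4:**
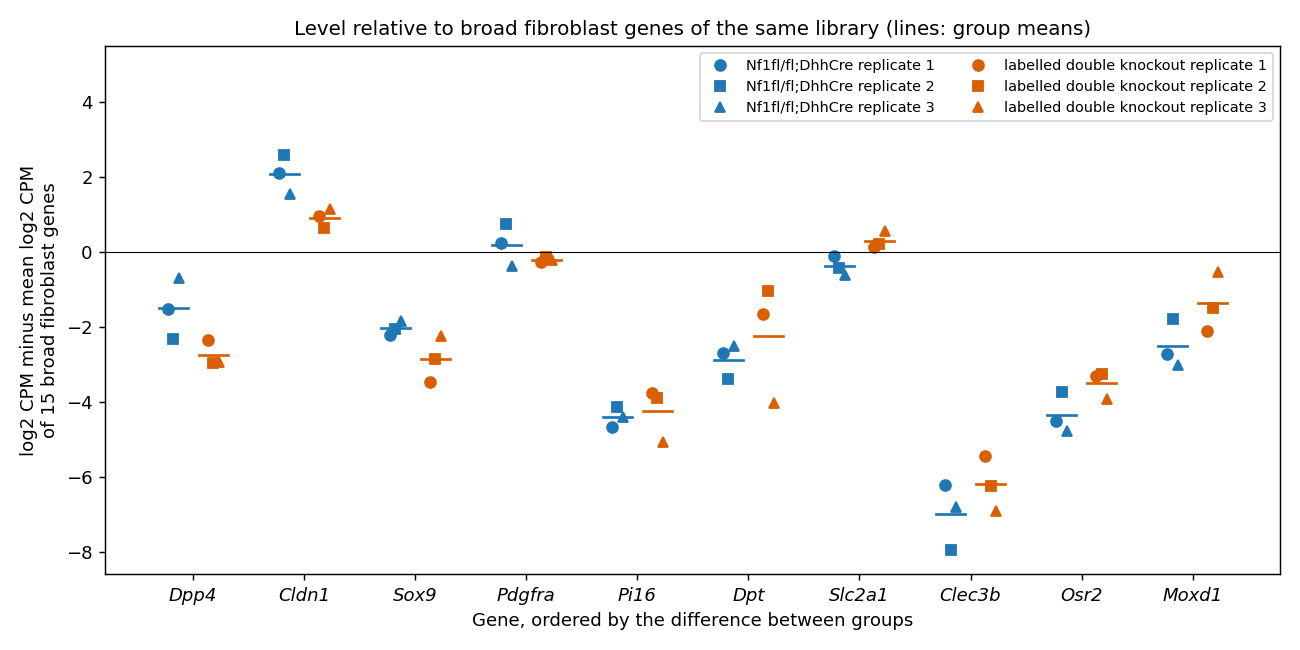
Log2 CPM of each gene minus the mean log2 CPM of 15 broad fibroblast genes in the same library (y axis), by gene in the order of the difference between groups (x axis), with points for libraries and lines for group means. *Dpp4*, *Cldn1* and *Sox9* are separated downward in the libraries labelled double knockout and *Slc2a1* upward. The mean of the broad fibroblast genes itself differed by -0.82 between the groups.

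Markers of other cell types also differed between the groups, where 5.36% of all genes tested were lower and 8.03% higher DEGs. All 13 sensory neuron markers were DEGs and higher. The one with the highest mean CPM over all 6 libraries, not corrected for length, was *Nefl* (log2 fold change 2.40). Of 12 macrophage markers 9 were lower (*Lyz2* -1.22), and of 10 SC markers 4 were higher and 0 lower. The SC marker with the highest mean CPM over all 6 libraries, *L1cam* (0.37), was not a DEG. The markers of satellite glia had 1 lower DEG, *Kcnj10* (-1.25), and 1 higher DEG, *Fabp7* (1.87). Those of meninges had 1 lower DEG, *Aldh1a2* (-3.56). *Glul* (0.60) and *Foxc1* (-1.03), with the highest mean CPM of these lists, were not DEGs. Of 6 mast cell genes 0 were DEGs. Their median log2 fold change was -0.76. *Kit*, with the highest mean CPM not corrected for length, was the only one with a positive value (0.67). The lists of mural cells (*Rgs5*, 0.92), T cells (*Cd4*, -1.98), endothelium (*Cdh5*, 0.02) and muscle (*Myh4*, 4.79) also had 0 DEGs. Of 5 erythrocyte genes 4 were at 0 in every library, and *Alas2* alone was tested (0.25, not a DEG). Their part in the results on the 10 genes was not tested.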

How the data were processed

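RNA from mouse DRG/tumors (3 mice per genotype) was amplified (NuGEN Ovation) before library preparation (Nextera XT), and the authors aligned paired-end reads to mm10 with TopHat. The deposited counts are whole numbers of reads per gene that the authors made with featureCounts, not normalized. The annotation, and how reads with several alignments were handled, are not given in the sources used here. Amplification and counting without molecular identifiers mean that depth bounds counting error only. The labels do not say which libraries share a litter or a day, and p-values measure the spread between these mice.

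Low counts were filtered with filterByExpr of edgeR 4.0.16 (at least 10 counts, total of at least 15), TMM factors were computed, and genes were fitted with limma-voom (limma 3.58.1, R 4.3.3), with genotype as the only term. TMM, limma-voom and the DEG cutoffs follow the study's methods, which state neither a filter nor the terms of the model. The alternatives comprised DESeq2 1.42.0, the quasi-likelihood test of edgeR, other scaling, filters and weights, and leaving out each library. The steps were tested on simulated data. Replicates were numbered here in the order of the samples within each group. No replicates agreed within sampling noise. Exon lengths and positions came from GENCODE M21 (GRCm38) and promoters from RefSeq (GRCm38.p6, 7 of 10 genes matched).

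The 10 genes and all lists were chosen with earlier results of these data known. Named from each fibroblast or perineurial list were the 3 DEGs with the largest change and the gene with the highest CPM per kb. From each other list the gene with the highest mean CPM was named. Both ranks were taken over all 6 libraries. *Thy1*, *Hapln1*, *Matn3*, *Tjp1*, *Kcnj10*, *Fabp7*, *Aldh1a2* and the other epithelial genes were named after their values were seen. Python 3.11.15 with matplotlib 3.10.9 was used for the figures.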

Additional observations from a re-analysis of the deposited data

How the results depend on the processing

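*Cldn1*, *Dpp4*, *Sox9* and *Pdgfra* were lower DEGs in each of the 7 alternatives that used all libraries, and the log2 fold change stayed negative in each fit that left out 1 library. In those 6 fits, 1 to 3 of the 10 genes were lower DEGs and 0 were higher. *Sox9* passed in 6, *Cldn1* in 5, *Dpp4* in 2 and *Pdgfra* in 1. Over all genes the lower DEGs numbered 181 to 1028 and the higher DEGs 181 to 1304 in the same fits, and both counts were at their lowest, 181, without Nf1fl/fl;DhhCre replicate 1. DESeq2 gave 1236 lower and 1671 higher DEGs, against 839 and 1257. Of all DEGs 60.0% were higher, with equal numbers in both directions without Nf1fl/fl;DhhCre replicate 1, and 68.0 to 70.3% when any library labelled double knockout was left out. Over the alternatives with all libraries the log2 fold change took either sign for *Dpt* (-0.38 to 0.23), *Clec3b* (-0.30 to 0.13) and *Osr2* (-0.10 to 0.27). The median of the epineurial list was -0.91 with no filter on low counts, against -0.60. *Clec3b* was not tested where more than 1 CPM was required in 3 or more libraries. Relative to the broad fibroblast genes, a prior count of 2 moved each difference by less than the spread between libraries, but ended the overlap between groups for *Clec3b*. With TGTGG in place of TGTGGT, 4 promoters held a match instead of 2. No paired analysis was possible because the mouse numbers in the labels are not shared between the groups. The replicate numbers used here follow only the order of the samples. The cause of these changes was not tested.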
